A study of Mus musculus with 2 samples.

Results

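The genes described here encode the laminins, the integrins and the molecules that link them into the basement membrane of the fetal mouse ureter. They were taken from the array by symbol: laminin chains (Lama, Lamb and Lamc followed by a number), integrin subunits (Itga and Itgb) and 6 linker genes, Nid1, Nid2, Hspg2, Agrn, Dst and Plec. Described here are 46 genes found by this rule, of the 29923 on the array, measured by 70 of 39429 probes. The rule itself reads symbols and no measured value. Every count of members below is over these 46. In 42 of them at least 1 pool on each array stood well above background, which is the condition for the test used below, and in 31 the brighter pool reached a processed signal of 100 on both arrays. The 4 genes left untested were Itgad, Itgae, Itgax and Itgb2l, all blood cell integrins or relatives of them. The symbol rule also caught Itgb1bp1, Itgb1bp2 and Itgb3bp, whose products bind integrin tails or carry such a name and are not integrins.

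Ureters came from NMRI embryos at E18.5. Pparg-cKO embryos carried Pax2-cre/+ and Pparg(fl/fl), while the control genotype was labelled Pparg(fl/?) with no cre, so that controls too held at least one floxed allele and their other allele is not given. Pax2-cre acts in the epithelium of the ureter and in other derivatives of the nephric duct. The mesenchymal wall, whose RNA is in the same pools, lies outside that domain. Each of 2 two-colour arrays set one pool of Pparg-cKO ureters against one pool of control ureters, with female embryos on replicate 1 and male embryos on replicate 2. The dyes were exchanged between them, so sex, dye orientation and array cannot be told apart. The pools are separate samples. P-values rest on the spread between these 2 pairs of pools, which limma pulls toward the spread of all genes tested. Sex and dye orientation are part of that spread.

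A basement membrane is a sheet of laminin and type IV collagen on which epithelia rest. A laminin is a trimer of an alpha, a beta and a gamma chain, and nidogens, perlecan and agrin tie the laminin network to collagen and to growth factors. Integrins are heterodimers of an alpha and a beta subunit that bind these proteins from the cell side. In basal cells of stratified epithelia such as the urothelium, the integrin made of the alpha 6 and beta 4 subunits sits in hemidesmosomes. There it binds an epithelial laminin with the chains of Lama3 and Lamb3 outside the cell, and plectin and dystonin, which hold keratin filaments, inside it.

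The direction of the ratios is that of the deposited value table, also the study's own. By the dye labels as written each ratio would run the other way, and the words higher and lower would then be exchanged throughout, while sizes and p-values would stay. The Pearson correlation of the deposited table with the red over green ratio was 0.989 (female array) and -0.993 (male array). In this direction the Pparg probe, whose place relative to the floxed exons was not analysed here, gave 12357 signal units in the female Pparg-cKO pool and 6113 in the female control pool. The male pools gave 12930 and 6688. Superficial cell markers were lower in Pparg-cKO on both arrays in 6 of 6 genes, with a median log2 ratio of -1.26 over both arrays. All markers on the smooth muscle, fibroblast, endothelial, pan-epithelial and basal lists were well above background in at least 1 pool on each array. RNA of a whole ureter cannot separate fewer cells of a type from less RNA per cell.

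The array reads each gene through 60-base oligonucleotides, and for some genes the answer depends on which oligonucleotide is read. The first 30 bases of the probes behind the main results are shown 5′ to 3′, with positions on mouse build mm9 for the whole probe. The first pair belongs to genes with 1 probe each, a chain of the epithelial laminin (Lamb3) and the beta subunit of its receptor (Itgb4).
Lamb3, chr1:195170009-195170068, plus strand: tgtatgaacacaaaacccaataaaaatctt
Itgb4, chr11:115869666-115869725, plus strand: gagctggcacaagtccccagccttttgttc

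The next 4 all read Dst, but each was designed on another transcript variant of RefSeq, and their ratios differed.
Dst, variant 2, chr1:34364644-34364703, plus strand: aggaagaaagaacttaacatgaactgatgt
Dst, variant 4, chr1:34239785-34239844, plus strand: gaaagctgattttgatttccacacaggact
Dst, variant 3, chr1:34209337-34211389, plus strand: cgaaggtggcgaaggcattggtgcaaacga
Dst, variant 1, chr1:34365447-34365506, plus strand: catactagagaaagatattagtatgcattt
The variant 3 probe spans more than its own length on the genome and so crosses a splice junction.

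The last pair reads Itgb1bp1, where the probes gave opposite signs.
Itgb1bp1, 497 bases into the transcript, chr12:21277932-21277991, minus strand: tttgtgcctttggaagaggagttcattctg
Itgb1bp1, 1613 bases into the transcript, chr12:21275868-21275927, minus strand: aataatccgtttaggttatacagtatatac

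To ask which matrix and adhesion genes differ in Pparg-cKO ureters, each gene was read on both arrays. Of the 31 members bright enough, 0 were at least 1.5-fold higher on both arrays, the fold rule, and 0 were lower, against 0.792% of all bright genes called higher and 1.05% called lower. Limma called 0 of the 42 tested members, against 0.378% of all genes higher and 0.364% lower, and the smallest adjusted p of a member was 0.235, that of Lama3. At an unadjusted p under 0.05 limma held 7 members, or 16.7%, against 8.44% of all genes. The members' share was near that of all genes with scanner-processed signals (7.14% against 7.07%) and with the deposited table (9.52% against 9.34%). The 7 were Lama3, Lama5, Dst and Nid1 on the higher side and Lamc3, Lama1 and Itgb3bp on the lower side. No member passed 1.5-fold in opposite directions.

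The arrays differed in how much they showed. On the male array 10 of the 31 bright members were at least 1.5-fold higher in Pparg-cKO, against 6.44% of all bright genes, and 0 were that much lower, against 1.91%. On the female array 0 were at least 1.5-fold higher, against 1.19%. The median log2 ratio of the tested members was 0.03 (female) and 0.18 (male), beside -0.01 and 0.01 for all genes tested. The mean over the arrays had a median of 0.13 in the members and 0.01 in all genes. The male log2 ratio exceeded the female one in 31 of 42 members, against 55.7% of all genes. By sign alone, 20 members were higher on both arrays, against 26.7% of genes, and 8 were lower on both, against 26%. Whether the difference between the arrays is one of sex, dye or pools cannot be told apart, since each sex was measured on 1 array.

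**Figure D1:**
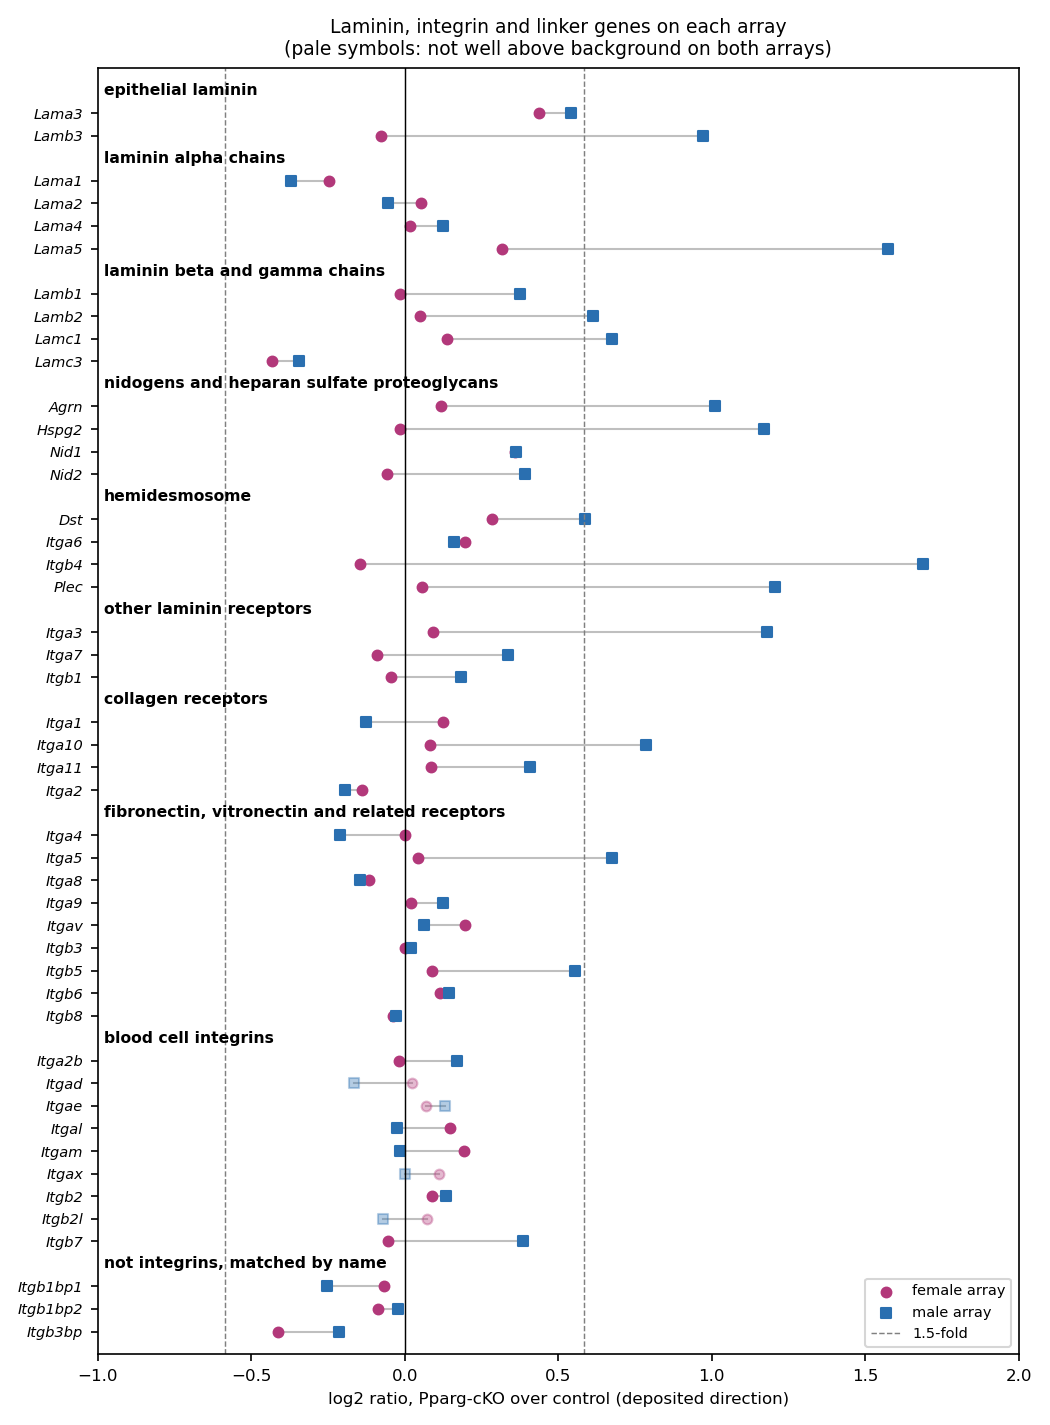
Log2 ratio of Pparg-cKO over control for the 46 genes, grouped by role, with the female array as circles, the male array as squares and dashed lines at 1.5-fold. A grey line joins the 2 arrays of a gene; no gene has both symbols beyond a 1.5-fold line, and Itgb4, Lama5, Plec and Hspg2 have the male symbol far to the right of the female one.

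Chains of the epithelial laminin were higher on the male array. Lama3, its alpha chain, gave 360.1 against 275 in the female pools and 431 against 297 in the male pools. Both Pparg-cKO pools lay above both control pools, by log2 ratios of 0.44 and 0.54, and the adjusted p was 0.235 in limma. A second Lama3 probe read 0.48 and 0.76. Lamb3, the beta chain, differed between the arrays. It gave 304 against 319 in the female pools, where the Pparg-cKO pool was the lower, and 639.8 against 330.3 in the male pools. The log2 ratios of Lamb3 were -0.08 and 0.97. Lamb3 and Lama3, chains of one trimer, were thus both higher on the male array, while on the female array Lamb3 was near 0.

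Among the hemidesmosome genes no member passed either rule on its brightest probe, though a dimmer Dst probe was past 1.5-fold on both arrays. On the male array 3 of 4 genes were at least 1.5-fold higher, against 6.44% of all bright genes. Itgb4 and Plec were so under every setting tried, whereas Dst, just past 1.5-fold, was not. Itgb4, the beta subunit found mainly in hemidesmosomes, had the widest gap between the arrays of any member. It gave 611 against 657 signal units in the female pools and 1801 against 584 in the male pools, so that the male Pparg-cKO pool stood above the other pools, which were close to each other. Its log2 ratios were -0.14 (female) and 1.69 (male). The mean was 0.77 ± 1.30 (SD, n = 2), smaller than its spread, with an adjusted p of 0.728 in limma. Plec encodes plectin, which links the receptor to keratin, and it gave 1130.0 against 1111 and then 2999 against 1328, log2 ratios of 0.05 and 1.21.

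Itga6, the alpha partner of Itgb4, did not share that gap. Its signals were 3199 against 2809 in the female pools and 3176 against 2951 in the male pools, and its log2 ratios were 0.20 and 0.16. A second Itga6 probe read 0.09 and 0.48. The subunits of one receptor had male log2 ratios of 1.69 (Itgb4) and 0.16 (Itga6), a difference that was not tested.

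Dst, which encodes dystonin, gave 2622 against 2114 signal units in the female pools and 3399.6 against 2353 in the male pools on its brightest probe, that of variant 2. Both Pparg-cKO pools were above both control pools, with log2 ratios of 0.28 and 0.59 and an adjusted p of 0.393 in limma. The probe of variant 4 gave 555 against 356 and 679 against 439. It read 0.68 and 0.61, which is at least 1.5-fold on both arrays, the only Dst probe of which this was so. The probe of variant 3 read 0.01 and 0.54, with signals between 59.0 and 106, and that of variant 1 read 0.14 and 0.32. The female array accounts for most of this spread, with a range of 0.67 over the 4 probes, against 0.29 on the male array. Dst did not pass the fold rule on its brightest probe or with the median over its probes, where its mean log2 ratio was 0.39.

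**Figure D2:**
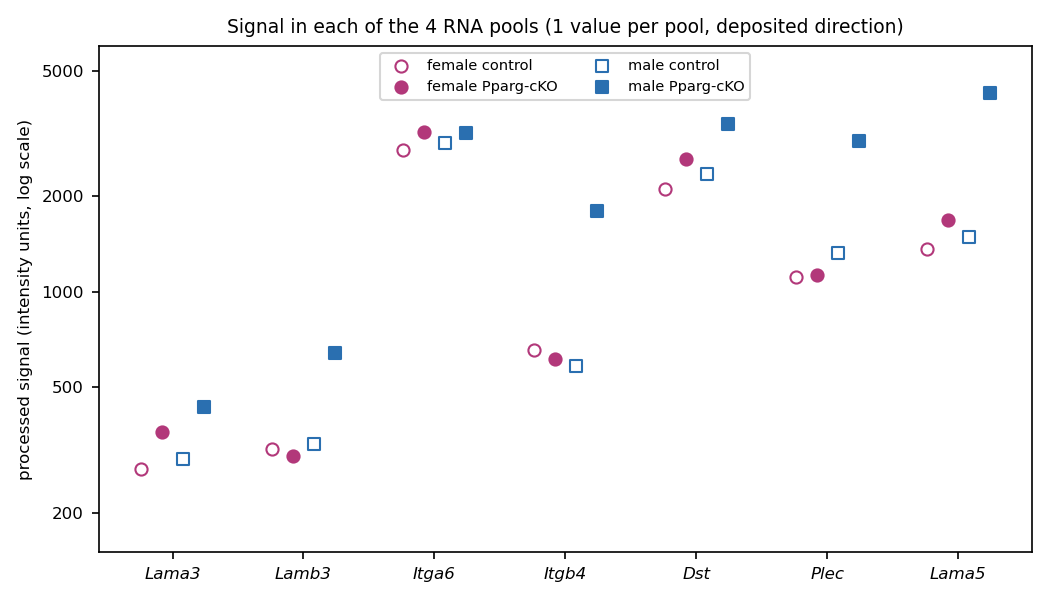
Processed signal on a log axis in each of the 4 RNA pools, 1 point per pool, for Lama3 and Lamb3, the hemidesmosome genes and Lama5, with open symbols for control and filled symbols for Pparg-cKO. Lama3, Itga6, Dst and Lama5 have both filled symbols above both open ones, whereas Lamb3 and Itgb4 have a raised filled square (male) and a filled circle (female) just below its control.

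The other laminin alpha chains differed from each other. Lama5, the alpha chain of most epithelial basement membranes, gave 1689.9 against 1368 signal units in the female pools and 4259.8 against 1484 in the male pools. Both Pparg-cKO pools were above both control pools, yet by log2 ratios as unequal as 0.32 and 1.58. Their mean was 0.95 ± 0.89 (SD, n = 2), and limma gave an adjusted p of 0.475. Lama2 and Lama4, the alpha chains of muscle and of vessels and mesenchyme, were nearly flat. Lama2 had log2 ratios of 0.05 and -0.05 and Lama4 of 0.02 and 0.13. Lama1, a chain of early basement membranes, was dim, with 65.4 against 76.4 and 76.5 against 106, and log2 ratios of -0.25 and -0.37.

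Of the remaining beta and gamma chains, Lamc1, the gamma chain of most laminins, gave 5264 against 4566 in the female pools and 7153 against 4669.6 in the male pools. Its log2 ratios were 0.14 and 0.67. Lamb2 read 0.05 and 0.61 and Lamb1 -0.02 and 0.37, the same order of arrays. Lamc3 was the only one of these chains below 0 on both arrays. It gave 182 against 253 in the female pools and 239 against 314 in the male pools, and within each pair the Pparg-cKO pool was lower, with both below both controls. Its log2 ratios of -0.43 and -0.35 differed by less than those of most members, and its adjusted p was 0.361 in limma.

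Of the linkers, the heparan sulfate proteoglycans were past 1.5-fold on the male array and not on the female array. Agrn, which encodes agrin, gave 4188 against 3706 in the female pools and 8171 against 4116 in the male pools, log2 ratios of 0.12 and 1.01. Hspg2, which encodes perlecan, gave 1187 against 1196 and 2627 against 1192, log2 ratios of -0.02 and 1.17. The control pools and the female Pparg-cKO pool of Hspg2 lay close together, and the male Pparg-cKO pool stood alone. Second probes of both genes read less on the male array, 0.43 for Agrn and 0.69 for Hspg2, but were dim. Their signals lay between 14.7 and 36.0 for Agrn and between 42.2 and 100 for Hspg2.

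The nidogens differed from the proteoglycans. Nid1 gave 9332 against 7329 in the female pools and 9707 against 7819 in the male pools, and its log2 ratio was 0.36 on each array, with an adjusted p of 0.397 in limma. This evenness belongs to 1 of its 3 probes. The probe 4283 bases into the transcript read 0.16 and 0.27, and that at base 269, the nearest to the 5′ end, read -0.04 and -0.30. Nid2 gave 1757 against 1853 and 2202 against 1752, log2 ratios of -0.06 and 0.39.

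**Figure D3:**
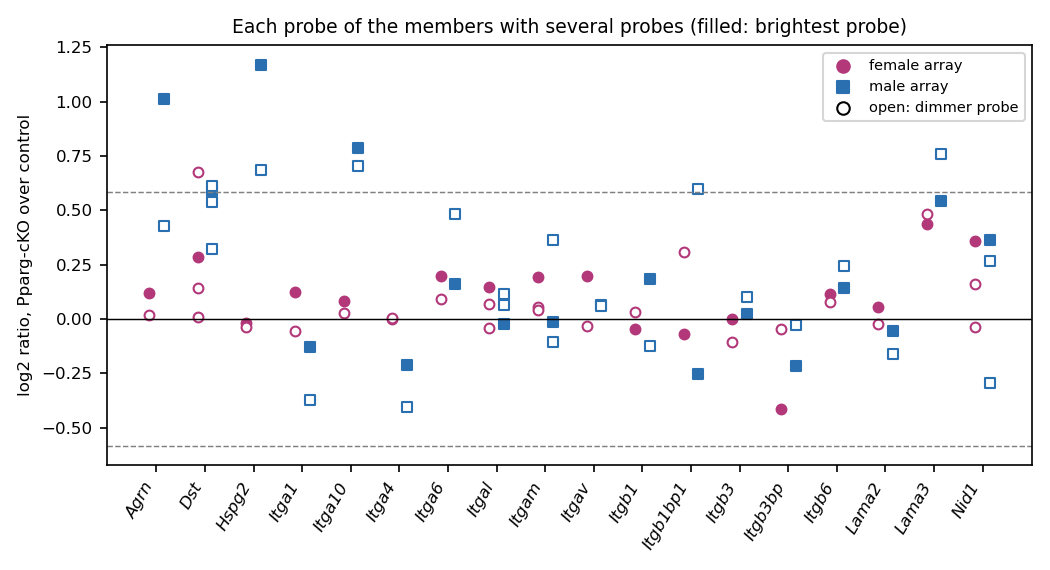
Log2 ratio of each tested probe for the 18 members with several tested probes, with the brightest probe filled and the others open, circles for the female and squares for the male array. Dst on the female array and Nid1 and Itgb1bp1 on the male array spread over wide ranges, and Lama3 stays above 0 with both probes on both arrays.

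The integrins outside the hemidesmosome stayed close to 0 on the female array, as did Itgb4 (-0.14) and Itga6 (0.20). Itgb1, the beta subunit of most matrix receptors, gave 6635 against 6594 and 7234 against 6643, log2 ratios of -0.05 and 0.18, while a second probe read 0.03 and -0.12. Itga3, an alpha subunit that binds the epithelial laminin and that of Lama5 with Itgb1, gave 80.8 against 74.3 in the female pools and 179 against 72.8 in the male pools. Its log2 ratios were 0.09 and 1.18, and as its female signals were below 100 it is not among the 10 members counted on the male array. Itga7, a laminin receptor of muscle, read -0.09 and 0.34.

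Of the collagen receptors, Itga10 was the only one at least 1.5-fold higher on an array. It gave 457 against 437 and 815 against 489, log2 ratios of 0.08 and 0.79, and a second probe read 0.03 and 0.70. Itga1 read 0.13 and -0.13. Itga11 and Itga2 had signals below 100, between 50.9 and 86.3 and between 9.75 and 17.9, and read 0.08 and 0.41, and -0.14 and -0.19. The mean of Itga2 was -0.17, against -0.40 with scanner-processed signals and -0.41 in the deposited table. Of the 9 receptors for fibronectin, vitronectin and related ligands, 7 were bright enough, and 0 of these passed 1.5-fold on either array, against 6.44% of all bright genes higher and 1.91% lower on the male array and 1.19% and 1.87% on the female array. Itgb5 came closest, with 1857 against 1778 and 2456 against 1739 and log2 ratios of 0.09 and 0.55. Itga5, the alpha subunit of the main fibronectin receptor, read 0.04 and 0.68 at signals between 55.9 and 111. Itga8, an integrin of mesenchyme that binds nephronectin, was lower in both Pparg-cKO pools than in both control pools, with 941 against 1008 and 895 against 1054 and log2 ratios of -0.12 and -0.15. Itga4, Itga9, Itgav, Itgb3, Itgb6 and Itgb8 had log2 ratios between -0.21 (Itga4, male) and 0.20 (Itgav, female). Itgb8, at signals between 3.03 and 4.59, was not well above background in 1 pool of each array.

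Blood cell integrins gave small ratios, most of them at low signals. Of the 9 listed, 5 were tested, and 1, Itgam, was bright enough. On either array 0 of the 5 passed 1.5-fold. Of all bright genes 6.44% were that much higher and 1.91% lower on the male array, and 1.19% and 1.87% on the female array. Itgam, an integrin of macrophages and neutrophils, gave 8505 against 7120.4 and 7658 against 8099, log2 ratios of 0.19 and -0.02. Its other 2 probes had signals under 100 in every pool and read 0.06 and -0.10, and 0.04 and 0.36. Itgb2, the beta subunit of leukocytes, read 0.09 and 0.14, Itgal 0.15 and -0.02, and Itgb7 -0.05 and 0.39. Itga2b, an integrin of platelets, read -0.02 and 0.17. Of 7 leukocyte markers 6 were on the array, with median log2 ratios of 0.19 and 0.14 and summed signals of 3268 against 3012 and 3009 against 2819. The 4 tested of 5 platelet markers had medians of -0.20 and -0.14.

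On their brightest probes the genes caught by name alone were lower on both arrays, 3 of 3, against 26% of all genes, with none past 1.5-fold. Of the 3, 2 were bright enough. Of all bright genes 1.91% were at least 1.5-fold lower on the male array and 1.87% on the female array. Itgb3bp, a centromere protein and transcription cofactor, gave 1233 against 1684 in the female pools and 924 against 1082 in the male pools. Its log2 ratios were -0.41 and -0.21, but a second, dim probe, at signals between 18.8 and 24.2, read -0.05 and -0.03. Itgb1bp1, an inhibitor of integrin activation, read -0.07 and -0.25 on its brightest probe and 0.31 and 0.60 on the other. Of the 18 members with several tested probes, 5 had probes of both signs in the mean.

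Counted over the pools, 12 of the 42 tested members had both Pparg-cKO signals above both control signals, against 14.7% of all genes, and 3 had both below, against 19.9%. The 12 were Lama3, Lama5, Lamb1, Lamc1, Nid1, Agrn, Dst, Itga6, Itga3, Itgb5, Itgb6 and Itgb2, of which the first 7 encode laminin chains, linkers or the dystonin plaque protein. The 3 were Lamc3, Itga8 and Itgb1bp1.

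**Figure D4:**
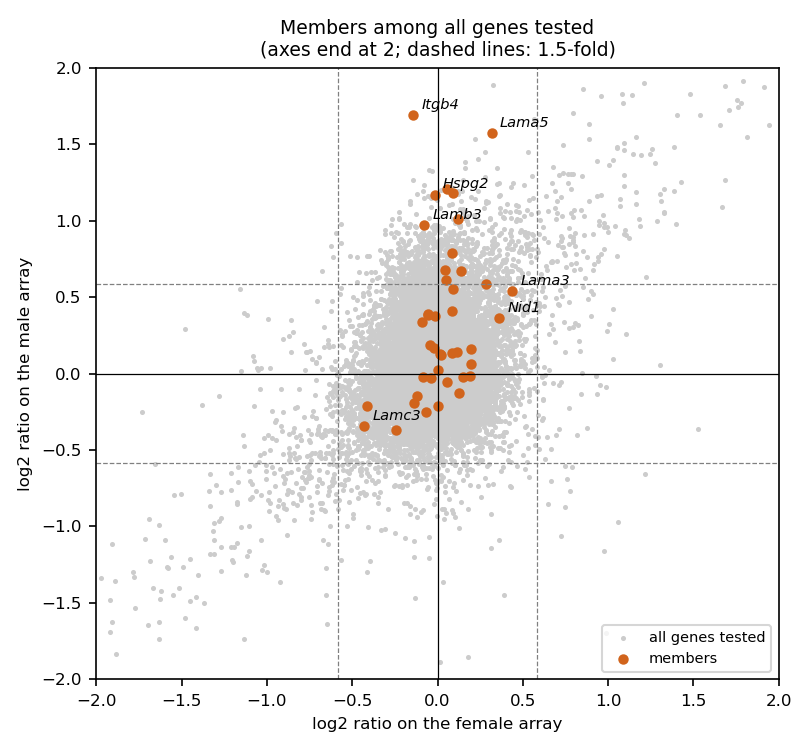
Log2 ratio on the male array against that on the female array, for all 22499 genes tested in grey and the 42 tested members in orange, with dashed lines at 1.5-fold and axes ending at 2. The members lie mostly along the vertical axis, above 0 on the male array with female ratios near 0, and none lies beyond 1.5-fold on both arrays.

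Marker lists of other cell types also differed between the arrays, some with this male difference and some not, and their part in it was not tested. The 6 pan-epithelial markers had median log2 ratios of -0.09 and 0.49, and 4 of them were above 0 on the male array. The 6 did not share a direction. Cdh1, the adhesion protein of epithelial cells, read 0.07 and 1.11, Epcam 0.41 and 0.48, and Esrp1 0.12 and 0.51. Krt18 read -1.04 and -0.54, Cldn4 -0.25 and -0.09, and Krt8 -0.28 and 0.52. The summed signal of the 6 was 26255 against 38413 in the female pools and 35055 against 32821 in the male pools. The 6 basal urothelium markers had medians of 0.31 and 0.63, and sums of 5658 against 5343 and 7578 against 5398, but 3 were higher on both arrays and 1 was lower on both. Krt15 read 1.16 and 1.19, Krt17 0.78 and 0.90 and Krt14 1.11 and 0.91, so that these keratins did not follow the male difference. Of the 6 basal markers 5 were bright enough, and 2 were higher by the fold rule, against 0.792% of all bright genes. Krt5 read -0.86 and 0.35, Ngfr -0.16 and 0.08, and Trp63 -0.53 and -0.44. The 5 fibroblast markers had medians of 0.05 and 0.02. Their sum was 107544 against 107436 in the female pools and 119698 against 95826 in the male pools. Col1a1, the alpha 1 chain of type I collagen, read 0.13 and 1.08, and was the only fibroblast marker at least 1.5-fold higher on the male array. The 6 smooth muscle markers had medians of -0.24 and -0.08, with sums of 103949 against 115207 and 101331 against 116274. The 6 skeletal muscle markers had medians of -0.20 and -0.40, with sums of 7351 against 7879 and 6358 against 9068. The member probes also lay farther into long transcripts than most, with a median position of 4798 bases against 1643 for all genes tested. On the male array the log2 ratio had a Spearman correlation with that position of 0.27 across the 22499 genes and 0.32 across the 42 members, against 0.06 and 0.26 on the female array. Genes are not independent, and all share the same hybridisations. Beyond base 4000 the male median was 0.13 over 2961 genes and 0.40 over 26 members.

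The neighbours of these genes in the basement membrane and its attachment were read from a list of 33, all of them tested. The list was made with earlier results of these data known, so its counts beside all genes are a description only. By the fold rule 2 of the 24 bright enough were higher and 0 lower, against 0.792% and 1.05% of all bright genes, and limma called 1 of the 33 higher, against 0.378%. On the male array 8 of the 24 were at least 1.5-fold higher, against 6.44%, and 0 lower. On the female array 3 were at least 1.5-fold higher, against 1.19%, and 1 lower, against 1.87%. Their median log2 ratios were 0.02 and 0.35. Krt14, a keratin anchored at hemidesmosomes, gave 1335 against 631 and 1489 against 773, both pairs alike, 2.01-fold in the mean, and limma's adjusted p for it was 0.0434. Its mean log2 ratio stayed between 1.01 and 1.08 under every other setting, while its adjusted p in limma was 0.235 with scanner-processed signals, 0.533 with the deposited table and 0.0859 without the filter on dim probes. Fras1, a protein beneath fetal epithelia, gave 937 against 609 and 1314 against 706, 1.69-fold, with an adjusted p of 0.126 in limma. Its partner Frem2 read 0.54 and 1.13, while Frem1, the third of that complex, read 0.02 and -0.06.

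The 6 type IV collagen chains are given by the pairs whose genes lie next to each other in the genome, and differences between pairs were not tested. Col4a5 and Col4a6, found in some epithelial basement membranes, read 0.47 and 0.87, and 0.47 and 1.09. The widespread pair Col4a1 and Col4a2 read -0.15 and 0.37, and 0.00 and 0.26, and Col4a3 and Col4a4, at signals below 100, read 0.22 and -0.01, and -0.07 and 0.10. Npnt, a ligand of the integrin of Itga8, read 1.03 and 0.42, the reverse order of the arrays. In the hemidesmosome, Col17a1 read 0.46 and 1.10 at signals between 44.4 and 126, and Col7a1 of the anchoring fibrils read -0.08 and 0.85. Among 14 cytoplasmic partners of integrins, Tln1 (talin) read 0.07 and 0.68 and was the only one at least 1.5-fold higher on the male array at a signal of 100 or more. Fermt1, the kindlin of epithelial cells, read -0.71 and -0.29 at signals below 100.

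**Figure D5:**
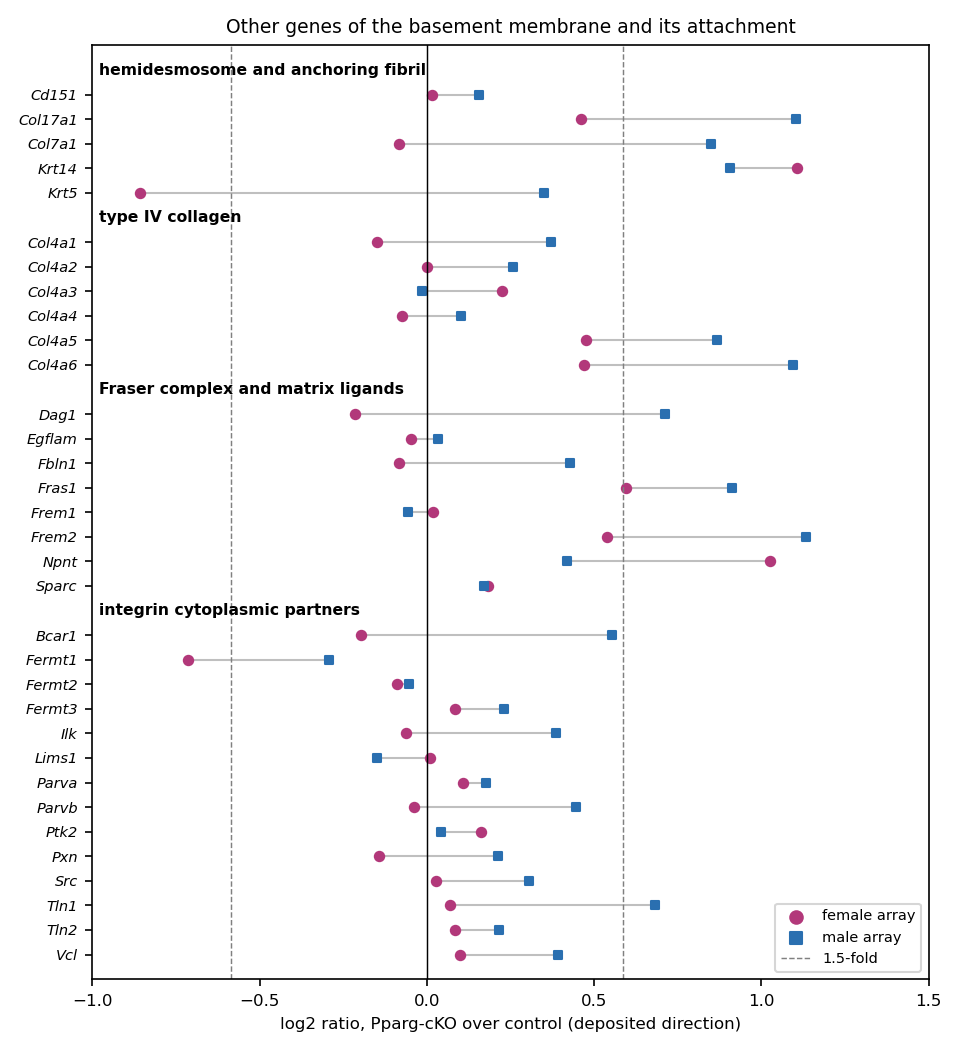
Log2 ratio of Pparg-cKO over control for 33 neighbouring genes in 4 groups, circles for the female array, squares for the male array and dashed lines at 1.5-fold. Krt14 and Fras1 have both symbols beyond the right line, Col4a5, Col4a6, Frem2 and Col17a1 have the male symbol beyond it and the female one short of it, and Krt5 has the arrays on opposite sides of 0.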

How the data were processed

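RNA of 2 pairs of ureter pools was compared on 2 two-colour arrays, as grouped by GEO's labels. Per the file headers, the scanner files, made with Agilent Feature Extraction 10.7.3.1 per the submitters' processing notes, held spot intensity on a linear scale (mean signal, local background, and a processed signal corrected for background and dye). The authors' deposited value table held a signed fold change per probe and array, treated as a score and used for direction and as an alternative. How its scale was centred is not given in the sources used here; its median was 1 on both arrays. No column of another sample was used.

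Mean signals were corrected with normexp (offset 50) and normalised by loess in limma 3.58.1 (R 4.3.3), without outlier spots (2.87% and 3.24%), and with control spots given no weight. The 4 spots of a probe were averaged, and the brightest probe stood for a gene. Signals printed are processed signals, ratios are from loess. The fold rule asked for 1.5-fold in one direction on both arrays at a signal of 100. Limma tested the mean ratio against 0, in a two-sided test, adjusted by Benjamini-Hochberg across 22499 genes, with 1 residual degree of freedom and a prior worth 3.96. The number of arrays limits precision. The fit was tested on simulated data. Genes were named by role: every member past a rule, the laminin chains, linkers and integrins, with members past 1.5-fold on one array named as such. Of 70 member probes 67 matched a RefSeq transcript of GRCm38.p6, under the same symbol. Of the 47 genes found by the symbol rule 1 is not reported here and enters no count of members. Members and lists were chosen with earlier results of these data known. Alternatives were scanner-processed signals, median centring, no offset, the median over probes, the deposited table, no filter on dim probes, and each array alone.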

Additional observations from a re-analysis of the deposited data

Results flagged for a closer look

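Among the 75 tested genes of the members and their 33 neighbours, 1 gene moved in opposite directions on the arrays by at least 1.2-fold on each. Krt5, the keratin of basal cells, was lower in the female Pparg-cKO pool (1275 against 2315 signal units, log2 ratio -0.86) and higher in the male one (2542 against 2049, log2 ratio 0.35). The male minus female difference was 1.21 on the log2 scale. With 1 array per sex that difference was not tested.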

How the results depend on the processing

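Members past the fold rule numbered 0 under all 6 other settings of background, normalization, probe summary and filter, and from 0 (female array alone) to 12 (male array alone) with one array left out. Limma called 0 members under each setting, with 3 (7.14%, scanner-processed signals) to 15 (35.7%, no offset in normexp) at an unadjusted p under 0.05, against 7.07% and 9.57% of all genes. Over all genes, 167 calls in limma became 502 with no offset, 90 without the filter on dim probes, and 0 with scanner-processed signals or the deposited table, where 1590 and 2101 genes had an unadjusted p under 0.05; the cause was not tested. Genes past the fold rule numbered 258, and 446 or 1269 on the female or the male array alone. The members' median log2 ratio stayed between 0.12 and 0.19 across settings, and was 0.03 and 0.18 on the single arrays. The log2 ratios of Lamb3 and Itgb4 changed sign without the male array. For Lamb3 the ratio was 0.97 on the male array and -0.079, near 0, on the female array. For Itgb4 it was 1.69 and -0.14. Members at least 1.5-fold higher on the male array numbered 7 to 13 across settings, and 7 passed under every one: Agrn, Hspg2, Itga10, Itgb4, Lama5, Lamb3 and Plec. The analysis is paired by design, since each array sets its 2 pools, of one sex, against each other and the ratios were tested. No further pairing was possible in one group of 2 arrays. Signals under 100 on at least 1 array limit 11 tested members: Itga2, Itga3, Itga5, Itga11, Itgb8, Lama1, Itgb1bp2 and the blood cell integrins Itga2b, Itgal, Itgb2 and Itgb7.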
